A study of Homo sapiens with 14 samples.

Results

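The 48 genes described here encode the working parts of the lysosome and of autophagy: 6 membrane proteins and channels, 10 proteases, 9 glycosidases and sulfatases, 6 enzymes and binding proteins of lipid breakdown, 4 subunits or assembly partners of the proton pump, 2 transcription factors, 4 proteins of the autophagy receptor and ATG8 class and 7 proteins of autophagosome formation. They were chosen by symbol, not by any measured value, and all 48 were found among the 58219 genes of the count table and passed the filter on low counts with 21032 genes. Their RNA was measured in OVCAR4, an established cell line of high-grade serous ovarian cancer, after transfection of pools of small interfering RNAs (siRNAs), which direct the degradation of matching transcripts. The pools were directed at PAX8 (siPAX8), SOX17 (siSOX17), both together (siDual), MECOM (siMECOM) or WT1 (siWT1), which encode transcription factors. The control pools siNT1, a commercial non-targeting pool, and siNT2, a custom mix of non-targeting siRNAs, match no intended transcript. In every group 300000 cells of this single line, at early passages, received 120 nM of siRNA at seeding, the medium was renewed at 24 hours, and RNA was taken at 72 hours. The sources used here do not say whether the dose in siDual is the total or that of each pool. Each of the 7 groups had 2 libraries, 14 in all. Nothing in the labels says that paired libraries were transfected apart, and p-values here reflect the spread between these libraries alone, which may be technical.

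The lysosome is an acidic compartment in which proteins, glycans and lipids are broken down by hydrolases that work at low pH, a pH kept by the vacuolar proton pump. In autophagy, a membrane grows around cytoplasmic cargo, cargo receptors tether it to lipid-bound ATG8 proteins, and the closed autophagosome fuses with lysosomes. Many of these genes share a promoter element, CACGTG or its extended form TCACGTG, that is bound by transcription factors of the MiT/TFE family such as TFEB and TFE3, which move to the nucleus when nutrient signalling through mTORC1 is low.

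The promoter windows are shown because this element is the feature that the gene class is known for. Windows of 300 bases, from 250 before to 50 after the annotated start of transcription, were taken from RefSeq (GRCh38.p14) and matched 37 of the 48 genes. No entry was matched for LAMP2, LAMP3, CTSB, CTSK, CTSS, HEXA, NAGLU, PSAP, ASAH1, ATP6V1A and ATP6V1H. CACGTG was found in 9 of the 37 (24.3%), against 8.77% of 27305 genes with a window. TCACGTG, searched on both strands and therefore also as CACGTGA, contains CACGTG and was found in the same 9 genes (24.3%), against 4.49% of all genes with a window. Capitals mark the match, or TCACGTGA where matches on both strands overlap, and each sequence runs 5′ to 3′ on the strand of the gene, with up to 16 bases on each side of the match nearest to the start.
ATP6V0D1, chr16:67481194-67481233 (reverse strand): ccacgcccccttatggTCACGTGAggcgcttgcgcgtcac
CLN3, chr16:28492053-28492092 (reverse strand): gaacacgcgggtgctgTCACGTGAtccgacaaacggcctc
CTSA, chr20:45891293-45891332 (forward strand): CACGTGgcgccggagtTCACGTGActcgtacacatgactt
CTSD, chr11:1763952-1763990 (reverse strand): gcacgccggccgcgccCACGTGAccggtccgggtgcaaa
GAA, chr17:80101533-80101572 (forward strand): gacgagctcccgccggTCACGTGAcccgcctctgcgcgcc
GALNS, chr16:88856958-88856996 (reverse strand): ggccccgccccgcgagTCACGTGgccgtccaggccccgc
MCOLN1, chr19:7522593-7522632 (forward strand): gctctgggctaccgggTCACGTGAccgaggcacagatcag
NEU1, chr6:31862926-31862964 (reverse strand): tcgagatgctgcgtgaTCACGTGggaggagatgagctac
The ninth gene, LAMP1, held 6 matches, more than any other of these genes, and its whole window is given, followed by that of SMPD1, which had the largest increase in siPAX8 and no match.
LAMP1, chr13:113296989-113297288 (forward strand): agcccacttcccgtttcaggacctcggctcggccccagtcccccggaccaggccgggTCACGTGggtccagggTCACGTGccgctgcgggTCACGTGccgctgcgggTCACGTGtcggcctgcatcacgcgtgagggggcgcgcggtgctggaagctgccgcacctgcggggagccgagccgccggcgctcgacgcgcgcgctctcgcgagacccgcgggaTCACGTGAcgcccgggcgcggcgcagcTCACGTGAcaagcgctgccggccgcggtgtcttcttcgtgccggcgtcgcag
SMPD1, chr11:6390224-6390523 (forward strand): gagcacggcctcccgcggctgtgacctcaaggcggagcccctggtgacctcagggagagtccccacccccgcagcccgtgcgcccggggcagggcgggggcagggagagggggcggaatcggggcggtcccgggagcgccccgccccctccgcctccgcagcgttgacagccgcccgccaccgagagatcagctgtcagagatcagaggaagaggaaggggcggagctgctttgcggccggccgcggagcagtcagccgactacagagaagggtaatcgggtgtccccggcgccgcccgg
Across the 9 genes there were 19 matches, whose first bases lay from 193 to 2 bases before the start (for CLN3, which has several starts, before the first listed), and 10 of them had the full palindrome. A match describes the letters in a window and not binding, which was not measured in these libraries.

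**Figure D1:**
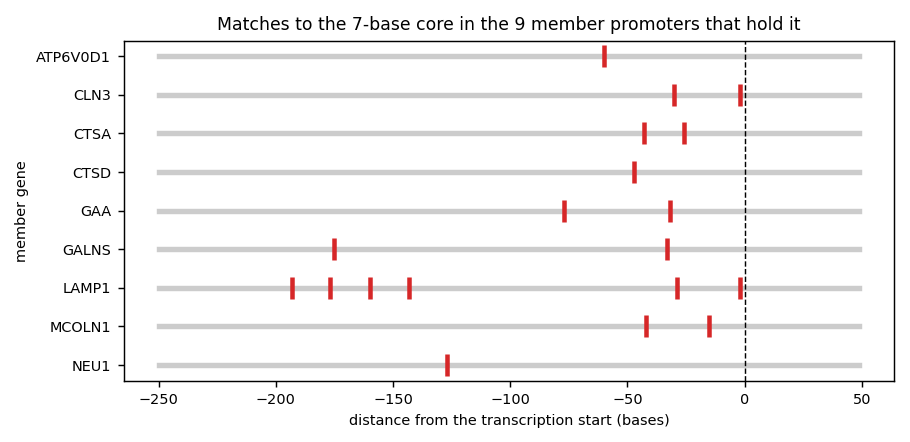
Positions of TCACGTG or CACGTGA matches in the promoter windows of the 9 genes that held any; the x axis is the distance in bases from the start of transcription and each row is a gene. LAMP1 carries 6 matches, and 13 of the 19 matches begin in the last 80 bases before the start.

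Total counts were 40832825 to 49059114 in the 4 control libraries and 41107918 to 49803860 in the 10 knockdown libraries. Levels are given as CPM, the usual scaling of a gene's counts to the size of its library. The targeted RNAs were low in the groups named for them: PAX8 at 32.8 and 38.3 CPM in siPAX8 against a control mean of 205, SOX17 at 15.7 and 13.1 CPM in siSOX17 against 111, and MECOM at 8.76 and 16.4 CPM in siMECOM against 129.9. In siDual PAX8 was at 52.8 and 50.6 CPM and SOX17 at 15.9 and 17.7 CPM. WT1 RNA was scarce in this line, with a control mean of 0.394 CPM, and was at 0 and 0.0191 CPM in siWT1. The targeted genes also moved with each other: MECOM was at 45.6 and 43.6 CPM in siSOX17, SOX17 at 239.8 and 219 CPM in siMECOM, and PAX8 at 112 and 118 CPM in siWT1. All 8 markers of ovarian serous carcinoma were detected, though MSLN was at only 0.248 to 1.01 CPM. The 4 fibroblast markers summed to 34.6 to 44.6 CPM in controls and 24.8 to 83.2 CPM in knockdowns, mostly COL1A1. The 3 endothelial markers summed to 8.24 to 9.73 CPM in controls and 6.01 to 19.5 CPM in knockdowns. Of 6 immune and myeloid markers, 4 stayed under 0.5 CPM in every library, and the sum of all 6 ran from 4.19 to 5.17 CPM in controls and from 1.30 to 39.8 CPM in knockdowns, which was mostly CSF1R, while the leukocyte marker PTPRC did not exceed 0.133 CPM. Mitochondrially encoded genes took 5.34 to 6.13% of counts in controls and 7.91 to 10.98% in all 10 knockdown libraries. With those genes removed, 0 of the calls made for the 48 genes were lost.

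Against the mean of the controls, these genes were called higher more often than lower in siPAX8, siSOX17 and siWT1, while in siDual and siMECOM the directions were closer to balance. A call here is a Benjamini-Hochberg adjusted p under 0.05 in edgeR's quasi-likelihood test, with the adjustment made over all genes tested. In siPAX8, 23 of 48 were called higher (47.9%, against 26.9% of all genes tested) and 9 lower (18.8%, against 25.4%), and their median log2 fold change was 0.18 beside 0.00 for all genes. In siSOX17, 20 were called higher (41.7%, against 27.2%) and 5 lower (10.4%, against 25.5%), with a median of 0.15 beside -0.01. In siDual, 17 were called higher (35.4%, against 28.9%) and 13 lower (27.1%, against 27.3%), with a median of 0.06. In siMECOM, 8 were called higher (16.7%, against 16.5%) and 9 lower (18.8%, against 16.1%), with a median of -0.03, so both shares were near the background. In siWT1, 15 were called higher (31.2%, against 17.7%) and 7 lower (14.6%, against 19.8%), with a median of 0.10. All 5 comparisons use the same control libraries and are not independent. Not all calls held in every alternative and leave-one-out fit. In siPAX8, 16 of the 23 higher and 5 of the 9 lower held, and in siSOX17 12 of 20 and 5 of 5. In siDual 12 of 17 and 7 of 13 held, and in siMECOM 5 of 8 and 5 of 9. In siWT1, 7 of 15 and 5 of 7 held, so there the directions were closer to balance among these calls. The count of 8 in siMECOM was 5 without siMECOM replicate 2, the count of 15 in siWT1 was 9 without siWT1 replicate 1, and the count of 5 in siSOX17 was 9 without siNT2 replicate 2.

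Calls are rarer among genes of low counts, so the same shares were taken among the 10042 genes at 10 CPM or more on average, 45 of them members, a level set after the data had been seen. There, 46.7% of members were called higher in siPAX8 against 31% of genes, 42.2% in siSOX17 against 32.2%, 35.6% in siDual against 33.6%, 15.6% in siMECOM against 15.2% and 31.1% in siWT1 against 21.8%. The shares called lower were 20% against 34.1%, 8.89% against 32.6%, 28.9% against 35.3%, 20% against 25% and 15.6% against 27.3% in the same order. As the libraries are of bulk RNA, fewer cells with a transcript and less of it per cell cannot be told apart.

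Most changes were under 2-fold, and many genes were called in opposite directions in different knockdowns. Of the 48 genes, 46 were called in at least 1 knockdown, 19 of them higher only, 10 lower only and 17 in both directions. In each knockdown 16.1 to 28.9% of all genes tested were called in a given direction. The same counts across knockdowns were not taken over all genes, so they are not read as a trait of these genes. GABARAPL1 was the 1 gene called higher in all 5, and 0 were called lower in all 5. The sphingolipid activator precursor gene PSAP and the acid ceramidase gene ASAH1 were called in none. A called change of at least 2-fold was reached by 6 genes: SMPD1, LIPA, GUSB, CTSB, LAMP3 and CTSK. In siPAX8, 2 of the 48 were called at least 2-fold higher and 2 lower, beside 1687 and 1364 of the 21032 genes tested. The summed level of all 48 genes was 4857 to 5105 CPM in controls and 4758 to 5647 CPM in knockdowns, with only siSOX17 and siPAX8 wholly above the controls.

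**Figure D2:**
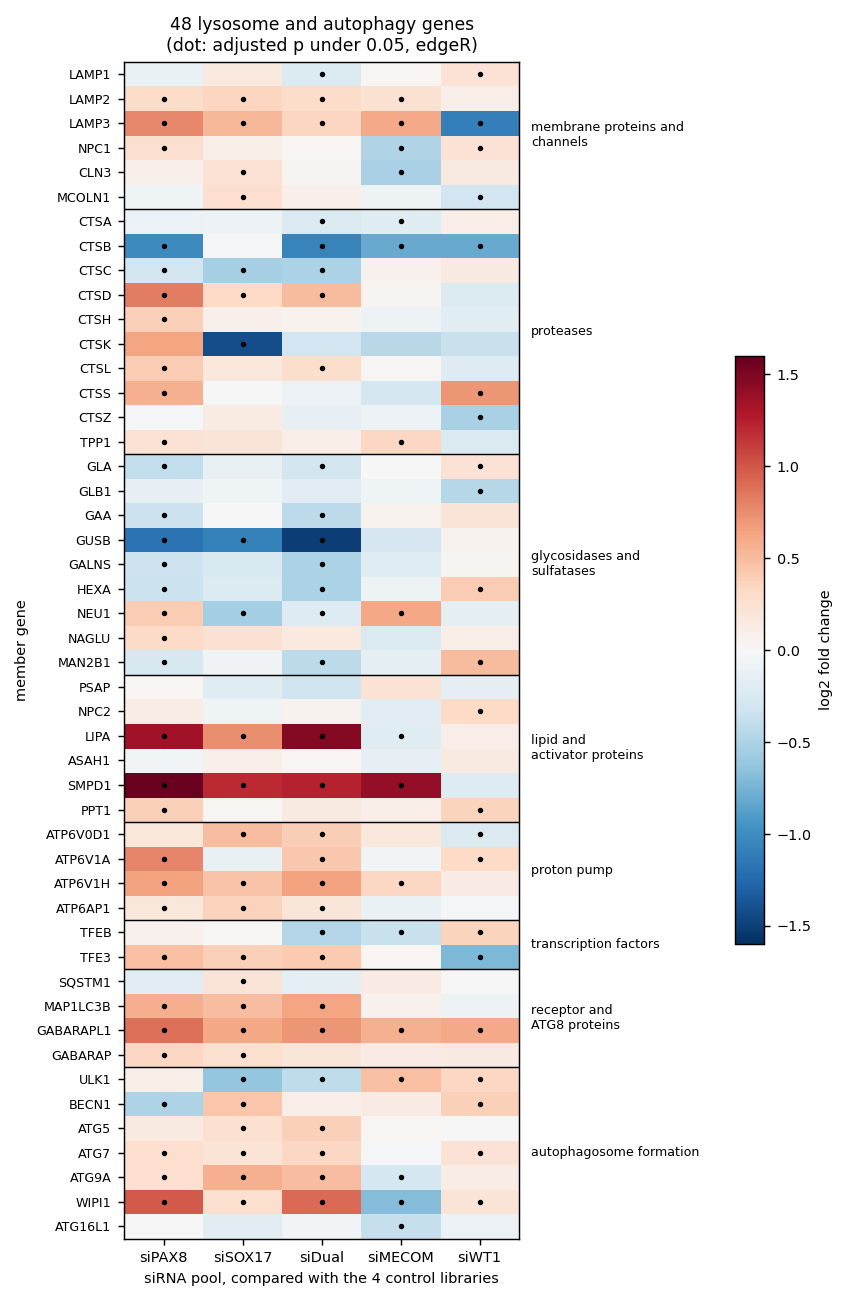
Log2 fold change of each of the 48 genes (rows, grouped by role) in the 5 knockdowns against the mean of the controls (columns), with called changes marked. Rows such as SMPD1 and LIPA are high in siPAX8, siSOX17 and siDual, GUSB is low in the same columns, and LAMP3 is high in 4 columns and low in siWT1.

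Per length of transcript, in control cells the receptor SQSTM1 was the most abundant member at 115 ± 6.95 FPKM, which is CPM per kilobase of summed exons (SD, n = 4). It was followed by the aspartyl protease CTSD at 85.4 ± 5.15 FPKM, the ATG8 protein GABARAP at 76.8 ± 8.74 and LAMP1 at 68.4 ± 5.70, of which CTSD and GABARAP, and GABARAP and LAMP1, overlap within their SD. GABARAP shares 30.5% of its exon bases with a gene model on its own strand and 25.2% with a gene on the opposite strand, so its counts are uncertain. The lowest were CTSK at 0.425 ± 0.157 FPKM and GABARAPL1 at 0.767 ± 0.0844 FPKM.

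The transcription factor genes TFEB and TFE3 moved apart from each other. TFEB was measured at 18.4 and 16.9 CPM in siNT1 and 15.2 and 16.1 CPM in siNT2, and at 17.3 and 17.5 CPM in siPAX8, 16.6 and 17.1 in siSOX17, 12.4 and 11.6 in siDual, 12.9 and 13.1 in siMECOM and 20.2 and 22.1 in siWT1. The siDual and siMECOM libraries all lay below the 4 control libraries, the siWT1 libraries lay above them, and siPAX8 and siSOX17 overlapped them. TFEB (ENSG00000112561.17, chr6:41683978-41736259 on the reverse strand of hg38) fell 1.39-fold in siDual, with a log2 fold change of -0.47 ± 0.08 (SE, adjusted p = 8.89e-05), and changed by -0.35 ± 0.08 (SE, adjusted p = 0.0027) in siMECOM and by 0.35 ± 0.08 (SE, adjusted p = 0.0016) in siWT1. Its log2 fold changes of 0.07 in siPAX8 and 0.02 in siSOX17 were not called. TFE3 was measured at 99.7 and 102 CPM in siNT1 and 92.7 and 102 CPM in siNT2, and at 144 and 132 CPM in siPAX8, 121 and 136 in siSOX17, 129 and 137 in siDual, 101 and 102 in siMECOM and 59.5 and 61.3 in siWT1. TFE3 was thus above all controls in the 6 libraries of siPAX8, siSOX17 and siDual and below them in siWT1. TFE3 (ENSG00000068323.16, chrX:49028726-49043486 on the reverse strand of hg38) rose by 0.48 ± 0.07 (SE, adjusted p = 8.72e-06) on the log2 scale in siPAX8, by 0.38 ± 0.07 (SE, adjusted p = 0.00013) in siSOX17 and by 0.42 ± 0.07 (SE, adjusted p = 3.2e-05) in siDual, and fell 1.64-fold in siWT1 (log2 fold change -0.71, adjusted p = 3.22e-07). In siMECOM its value of 0.03 was not called. The related gene MITF, from the list of regulators, was called higher in siPAX8 (0.28), siSOX17 (0.53) and siDual (0.67) and lower in siMECOM (-0.59). The other related gene, TFEC, was called higher in siDual (1.58 ± 0.49 SE) and siMECOM (1.54 ± 0.47 SE). It was not called in siPAX8, siSOX17 or siWT1. These are RNA levels, and the activity of these factors is set largely after translation.

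**Figure D3:**
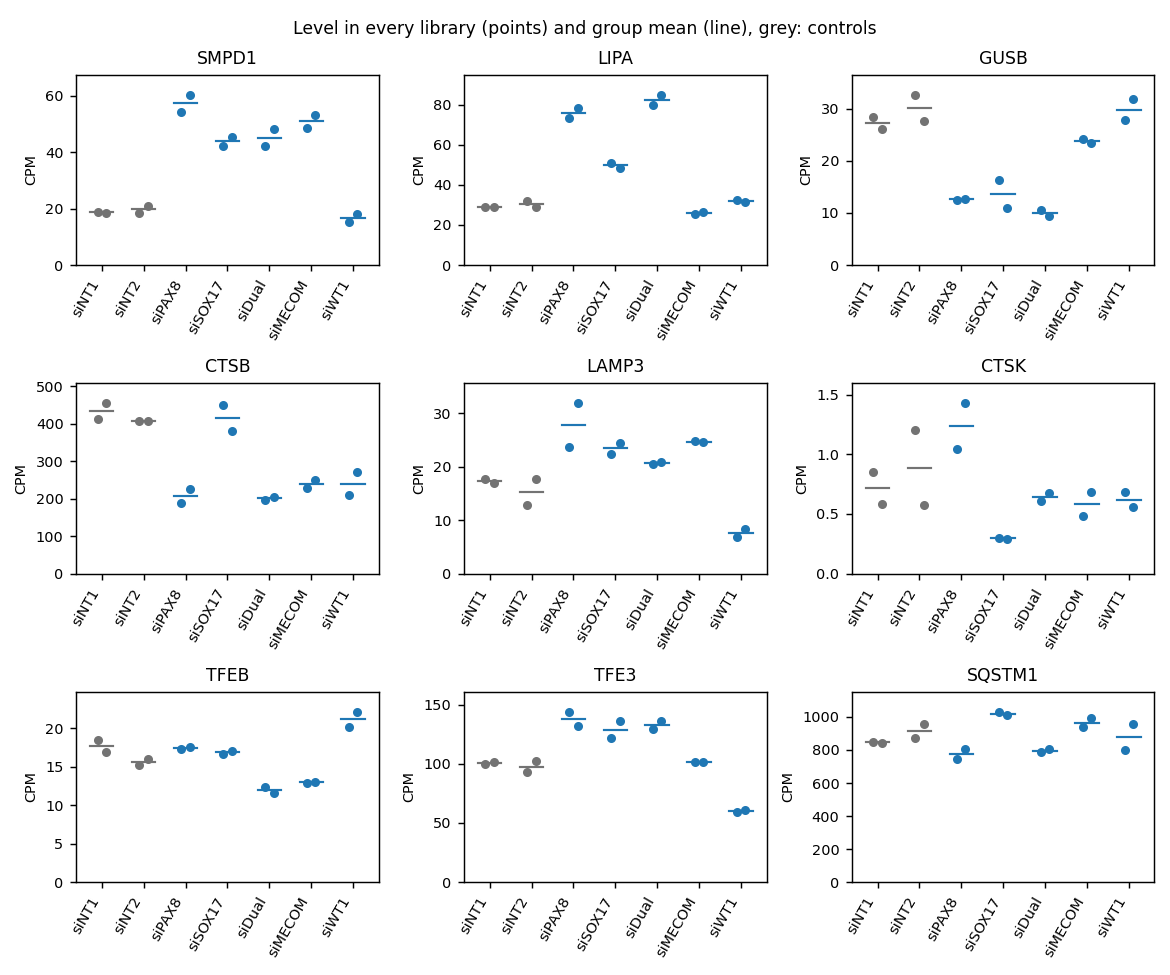
Level in CPM (y axes, from 0) of the members given in full, with a point for each of the 14 libraries, grouped by siRNA pool on the x axes. SMPD1 lies between 42.2 and 60.3 CPM in siPAX8, siSOX17, siDual and siMECOM against 18.5 to 21.0 in controls, and CTSB lies near its controls in siSOX17 and below them in the other knockdowns.

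Among the lipid enzymes, genes for the breakdown of sphingomyelin and of cholesteryl esters rose in siPAX8, siSOX17 and siDual, and 0 of the 6 genes were called lower there or in siWT1. Called higher were 3 of 6 in siPAX8 (50%, against 26.9% of all genes tested). In siSOX17 and siDual 2 each were called higher (33.3%, against 27.2% and 28.9%), and in siWT1 2 (33.3%, against 17.7%). In siMECOM 1 was called higher (16.7%, against 16.5%) and 1 lower (16.7%, against 16.1%). Of all genes, 25.4% were called lower in siPAX8, 25.5% in siSOX17, 27.3% in siDual and 19.8% in siWT1. The shares called higher in siSOX17, siDual and siMECOM were near those of all genes. SMPD1 was measured at 18.9 and 18.5 CPM in siNT1 and 18.5 and 21.0 CPM in siNT2, and at 54.3 and 60.3 CPM in siPAX8, 42.2 and 45.4 in siSOX17, 42.2 and 48.1 in siDual, 48.6 and 53.1 in siMECOM and 15.1 and 18.2 in siWT1. SMPD1, which encodes acid sphingomyelinase, was higher in all 8 libraries of the first 4 pools than in any control library, whereas both siWT1 libraries lay below the controls. SMPD1 (ENSG00000166311.9, chr11:6390431-6394998 on the forward strand of hg38) rose 2.98-fold in siPAX8, a log2 fold change of 1.58 ± 0.08 (SE, adjusted p = 1.26e-11), and 2.65-fold in siMECOM, of 1.41 ± 0.09 (SE, adjusted p = 3.58e-10). The increase was 2.28-fold in siSOX17 (adjusted p = 1.17e-09) and 2.35-fold in siDual (adjusted p = 4.59e-10). In siWT1 the value of -0.20 was not called (adjusted p = 0.0893), and it was -0.35 without siWT1 replicate 2. It was called with the replicate number added to the model (-0.21, adjusted p = 0.0258).

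LIPA was measured at 28.8 and 28.9 CPM in siNT1 and 32.0 and 29.2 CPM in siNT2, and at 73.1 and 78.2 CPM in siPAX8, 51.0 and 48.4 in siSOX17, 79.8 and 84.8 in siDual, 25.6 and 26.3 in siMECOM and 32.7 and 31.4 in siWT1. LIPA, the lysosomal acid lipase gene, was above every control library in siPAX8, siSOX17 and siDual, with siDual the highest, below them in siMECOM, and overlapping them in siWT1. LIPA (ENSG00000107798.17, chr10:89213569-89414557 on the reverse strand of hg38) rose 2.55-fold in siPAX8 (log2 1.35 ± 0.07 SE, adjusted p = 3.25e-12), 1.67-fold in siSOX17 (log2 0.74 ± 0.07 SE, adjusted p = 2.28e-08) and 2.77-fold in siDual (log2 1.47 ± 0.07 SE, adjusted p = 8.73e-13). The decrease in siMECOM was small at -0.19 ± 0.07 (SE, adjusted p = 0.0399), and it was not called on leaving out siNT1 replicate 1 (adjusted p = 0.07), siNT1 replicate 2 (0.0766), siNT2 replicate 1 (0.118), siMECOM replicate 1 (0.205) or siMECOM replicate 2 (0.134). Of the other members, PPT1, which removes palmitate from proteins, rose in siPAX8 (0.38) and siWT1 (0.35), and the cholesterol carrier NPC2 rose in siWT1 (0.32).

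The glycosidases and sulfatases, which strip sugars and sulfates from glycans, were lower rather than higher in siPAX8 and siDual. Of the 9 genes, 6 were called lower in siPAX8 (66.7%, against 25.4% of all genes tested) and 2 higher (22.2%, against 26.9%). In siSOX17 2 were called lower (22.2%, against 25.5%, so near the background) and 0 higher (against 27.2%). In siDual 7 were called lower (77.8%, against 27.3%) and 0 higher (against 28.9%). In siMECOM 1 was called higher (11.1%, against 16.5%) and 0 lower (against 16.1%). In siWT1 3 were called higher (33.3%, against 17.7%) and 1 lower (11.1%, against 19.8%). The calls that held in every alternative and leave-one-out fit numbered 3 of the 6 in siPAX8, both in siSOX17 and 4 of the 7 in siDual. GUSB was measured at 28.4 and 26.0 CPM in siNT1 and 32.6 and 27.6 CPM in siNT2, and at 12.5 and 12.7 CPM in siPAX8, 16.3 and 10.9 in siSOX17, 10.6 and 9.47 in siDual, 24.2 and 23.4 in siMECOM and 27.7 and 31.8 in siWT1. GUSB, the beta-glucuronidase gene and a common reference gene in quantitative PCR, was below all 4 control libraries in the 6 libraries of siPAX8, siSOX17 and siDual and also in siMECOM, and overlapped them in siWT1. GUSB (ENSG00000169919.16, chr7:65960684-65982314 on the reverse strand of hg38) fell 2.27-fold in siPAX8 (log2 -1.18 ± 0.12 SE, adjusted p = 1.53e-07), 2.11-fold in siSOX17 (log2 -1.08 ± 0.12 SE, adjusted p = 6e-07) and 2.85-fold in siDual (log2 -1.51 ± 0.13 SE, adjusted p = 7.48e-09). The siMECOM value of -0.27 was not called (adjusted p = 0.0854), and it was -0.35 without siNT2 replicate 2. It was called with no filter on low counts (-0.31, adjusted p = 0.00927) and with the replicate number added to the model (-0.27, adjusted p = 0.0468).

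NEU1, a lysosomal sialidase, was the member of this class with opposite calls in siPAX8 and siSOX17. NEU1 was measured at 99.3 and 109 CPM in siNT1 and 113 and 100.2 CPM in siNT2, and at 134 and 147 CPM in siPAX8, 75.6 and 69.1 in siSOX17, 86.4 and 95.9 in siDual, 156 and 168 in siMECOM and 89.5 and 99.2 in siWT1. The siPAX8 and siMECOM libraries were above the 4 controls and the siSOX17 and siDual libraries below them, as were those of siWT1, whose change (-0.16) was not called. NEU1 rose in siPAX8 by 0.41 ± 0.08 (SE, adjusted p = 0.000178) and in siMECOM by 0.62 ± 0.08 (SE, adjusted p = 4.16e-06), and changed in siSOX17 by -0.54 ± 0.08 (SE, adjusted p = 1.45e-05). The smaller decrease in siDual (-0.21) was not called without siDual replicate 1 (-0.14, adjusted p = 0.294). GAA, which releases glucose from glycogen, fell in siPAX8 (-0.34) and siDual (-0.42), and GLA, an alpha-galactosidase, fell in siPAX8 (-0.40). GALNS, a sulfatase of keratan and chondroitin sulfate, fell in siDual (-0.50), as did HEXA, a beta-hexosaminidase subunit (-0.50). In siWT1, the beta-galactosidase gene GLB1 fell (-0.45) and the alpha-mannosidase gene MAN2B1 rose (0.50). HEXA shares 10.1% of its exon bases with a gene on the opposite strand, and MAN2B1 13.1% with a gene model on its own strand.

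The 10 protease genes were called in both directions in every knockdown, and CTSB and CTSD, both abundant, went opposite ways in siPAX8 and siDual. In siPAX8 5 were called higher (50%, against 26.9% of all genes tested) and 2 lower (20%, against 25.4%). In siSOX17 these were 1 (10%, against 27.2%) and 2 (20%, against 25.5%), and in siDual 2 (20%, against 28.9%) and 3 (30%, against 27.3%). In siMECOM they were 1 (10%, against 16.5%) and 2 (20%, against 16.1%), and in siWT1 1 (10%, against 17.7%) and 2 (20%, against 19.8%). Apart from the share called higher in siPAX8, these were near or below the shares of all genes. Of those 5 calls higher in siPAX8, 2 held in every alternative and leave-one-out fit. Without siPAX8 replicate 2, CTSS moved from 0.56 to 0.17 and TPP1 from 0.24 to 0.14. CTSB was measured at 414 and 454 CPM in siNT1 and 407 and 408 CPM in siNT2, and at 189 and 226 CPM in siPAX8, 451 and 382 in siSOX17, 196 and 206 in siDual, 229 and 251 in siMECOM and 210.1 and 270.0 in siWT1. The cysteine protease gene CTSB was therefore below every control library in siPAX8, siDual, siMECOM and siWT1, and overlapped the controls in siSOX17. CTSB (ENSG00000164733.20, chr8:11842524-11869448 on the reverse strand of hg38) fell 2.03-fold in siPAX8 (log2 -1.02 ± 0.10 SE, adjusted p = 8.06e-08) and 2.10-fold in siDual (log2 -1.07 ± 0.10 SE, adjusted p = 3.81e-08). The decreases in siMECOM (-0.81 ± 0.10, adjusted p = 4.46e-06) and siWT1 (-0.81 ± 0.10, adjusted p = 3.87e-06) were of similar size. In siSOX17 the value was -0.02 ± 0.10 (SE), which was not called.

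CTSD was measured at 262 and 271 CPM in siNT1 and 248 and 286 CPM in siNT2, and at 472 and 469 CPM in siPAX8, 335 and 333 in siSOX17, 377 and 380.0 in siDual, 287 and 261 in siMECOM and 201 and 259 in siWT1. The aspartyl protease gene CTSD was above all 4 controls in siPAX8, siSOX17 and siDual, and overlapped them in siMECOM and siWT1. It rose 1.76-fold in siPAX8 (log2 0.82 ± 0.08 SE, adjusted p = 1.25e-07), 1.25-fold in siSOX17 (log2 0.32 ± 0.09 SE, adjusted p = 0.00373) and 1.42-fold in siDual (log2 0.50 ± 0.09 SE, adjusted p = 4.94e-05). As 41.7% of its exon bases are shared with an overlapping gene model on the same strand, its counts are uncertain.

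CTSK was measured at 0.849 and 0.586 CPM in siNT1 and 1.202 and 0.572 CPM in siNT2, and at 1.04 and 1.43 CPM in siPAX8, 0.298 and 0.292 in siSOX17, 0.612 and 0.675 in siDual, 0.484 and 0.682 in siMECOM and 0.686 and 0.555 in siWT1. These CTSK levels, for a collagen-degrading protease known from osteoclasts, rest on 11 to 64 counts a library and spread widely among the controls, and 3 of 3 osteoclast markers stayed under 0.5 CPM. The siSOX17 libraries were the lowest of all, and the other knockdowns overlapped the controls. CTSK (ENSG00000143387.12, chr1:150796208-150808323 on the reverse strand of hg38) fell 2.68-fold in siSOX17 (log2 -1.42 ± 0.37 SE, adjusted p = 0.00319). In siPAX8 its value of 0.63 ± 0.27 was not called (adjusted p = 0.0582). It was called with no filter on low counts (adjusted p = 0.0259), against siNT1 alone (0.0497) and with the replicate number added to the model (0.0463). Without siNT1 replicate 1, siNT2 replicate 1 or siPAX8 replicate 1 it was 0.76, 0.94 and 0.83 in turn. Among the rest, CTSC, a dipeptidyl peptidase that activates granule proteases, fell in siSOX17 (-0.53) and siDual (-0.51), CTSH rose in siPAX8 (0.38), and CTSZ fell (-0.51) while CTSS rose (0.71) in siWT1. CTSS and several other cathepsins are also abundant in myeloid cells. The myeloid marker CSF1R was at 3.43 to 4.29 CPM in controls, at 19.2 to 39.0 CPM in siPAX8, siSOX17 and siDual and at 0.438 and 0.517 CPM in siWT1, while PTPRC, CD14 and ITGAM stayed under 0.5 CPM in all 14 libraries.

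The membrane proteins were called higher more often than lower in siPAX8 and siSOX17, with 3 of 6 and 4 of 6 higher (26.9% and 27.2% of all genes) and 0 lower in both (25.4% and 25.5% of all genes). Of these calls, 2 of the 3 in siPAX8 and 1 of the 4 in siSOX17 held in every alternative and leave-one-out fit: CLN3 (0.23) and MCOLN1 (0.27) were not called in siSOX17 without siSOX17 replicate 2 (adjusted p = 0.129 and 0.133), nor was CLN3 without siNT2 replicate 1 (0.0695). In siDual 2 were higher (33.3%, against 28.9%) and 1 lower (16.7%, against 27.3%), none of which held throughout. In siMECOM 2 were called in each direction (33.3%, against 16.5% higher and 16.1% lower), as in siWT1 (33.3%, against 17.7% and 19.8%). LAMP3 was measured at 17.7 and 17.1 CPM in siNT1 and 12.8 and 17.7 CPM in siNT2, and at 23.7 and 31.9 CPM in siPAX8, 22.4 and 24.5 in siSOX17, 20.6 and 20.9 in siDual, 24.8 and 24.6 in siMECOM and 6.84 and 8.44 in siWT1. LAMP3, a member of the lysosome-associated membrane protein family that is less widely expressed than LAMP1 and LAMP2, lay above the controls in the 8 libraries of siPAX8, siSOX17, siDual and siMECOM and far below them in siWT1. LAMP3 (ENSG00000078081.7, chr3:183122213-183163839 on the reverse strand of hg38) rose by 0.77 ± 0.12 (SE, adjusted p = 1.96e-05) in siPAX8, by 0.53 ± 0.12 (SE, adjusted p = 0.00116) in siSOX17 and by 0.60 ± 0.12 (SE, adjusted p = 0.000677) in siMECOM, and fell 2.13-fold in siWT1 (log2 -1.09 ± 0.13 SE, adjusted p = 3.42e-06). The siDual increase of 0.35 ± 0.12 (SE, adjusted p = 0.0205) was not called without siNT2 replicate 1 (adjusted p = 0.088), siDual replicate 1 (0.0762) or siDual replicate 2 (0.099). LAMP2 was called higher in 4 knockdowns, at 0.29 in siPAX8, 0.34 in siSOX17, 0.30 in siDual and 0.25 in siMECOM. Each of those LAMP2 calls was lost on leaving out a library: siPAX8 replicate 2 (adjusted p = 0.107), siSOX17 replicate 1 (0.108), siDual replicate 1 (0.0577), and, for siMECOM, siNT1 replicate 1 (0.101), siNT2 replicate 2 (0.168), siMECOM replicate 1 (0.0678) or siMECOM replicate 2 (0.229). The cholesterol exporter NPC1 rose in siPAX8 (0.26) and fell in siMECOM (-0.48), where CLN3, a lysosomal membrane protein lost in juvenile Batten disease, fell as well (-0.51). CLN3 shares 25.2% of its exon bases with a gene model on its own strand that had almost the same mean count, so its counts are uncertain.

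Most proton pump genes were called higher in the PAX8 and SOX17 knockdowns, with 3 of 4 in siPAX8 (75%, against 26.9% of all genes tested). In siSOX17 3 were called higher (75%, against 27.2%), and in siDual 4 (100%, against 28.9%). Called lower were 0 in each of these groups, against 25.4%, 25.5% and 27.3% of all genes. The calls that held in every alternative and leave-one-out fit numbered 2 of 3 in siPAX8, 3 of 3 in siSOX17 and 2 of 4 in siDual. ATP6V0D1 in siPAX8 (0.19, adjusted p = 0.0662) and ATP6V1A in siSOX17 (-0.12, adjusted p = 0.38) were not called. In siMECOM 1 was called higher (25%, against 16.5%) and 0 lower (against 16.1%). In siWT1 1 was called in each direction (25%, against 17.7% higher and 19.8% lower). The summed level of the 4 genes was 388 to 414 CPM in controls and 497 to 518 CPM in the libraries of siDual, with siPAX8 at 516 in both and siSOX17 at 516 and 498, so these did not overlap the controls. Both siWT1 libraries (407) and the siMECOM libraries (417 and 401) stood at or near the control range. ATP6V1H, a regulatory subunit of the cytosolic V1 sector, rose by 0.64 ± 0.06 (SE, adjusted p = 6.26e-08) in siPAX8, 0.46 ± 0.06 (SE, adjusted p = 5.72e-06) in siSOX17, 0.64 ± 0.06 (SE, adjusted p = 5.84e-08) in siDual and 0.33 ± 0.06 (SE, adjusted p = 0.000532) in siMECOM. The catalytic subunit gene ATP6V1A rose in siPAX8 (0.78), while the membrane sector subunit gene ATP6V0D1 rose in siSOX17 (0.50) and siDual (0.39), and the accessory subunit gene ATP6AP1 rose in siSOX17 (0.36).

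Of the cargo receptor SQSTM1 and the 3 ATG8 genes, 3 were called higher in siPAX8 (75%, against 26.9% of all genes tested). In siSOX17 4 were called higher (100%, against 27.2%), and in siDual 2 (50%, against 28.9%). In siMECOM and siWT1 1 each was called higher (25%, against 16.5% and 17.7%). Called lower were 0 in every knockdown, against 16.1 to 27.3% of all genes. The calls higher that held in every alternative and leave-one-out fit numbered 2 of 3 in siPAX8, 2 of 4 in siSOX17 and 2 of 2 in siDual. They numbered 0 of 1 in siMECOM and 1 of 1 in siWT1. GABARAP, at 0.33 in siPAX8, was at 0.22 without siPAX8 replicate 1. At 0.25 in siSOX17, it was at 0.21 and not called against siNT2 alone (adjusted p = 0.0943). SQSTM1 was measured at 851 and 845 CPM in siNT1 and 871 and 959.8 CPM in siNT2, and at 746 and 805 CPM in siPAX8, 1029.9 and 1009.6 in siSOX17, 788 and 803 in siDual, 939 and 993 in siMECOM and 799.6 and 957 in siWT1. Both siPAX8 and both siDual libraries lay below the controls, the siSOX17 libraries above them, and the remaining groups overlapped them. SQSTM1 (ENSG00000161011.19, chr5:179806398-179838078 on the forward strand of hg38) changed little, and its value was called in siSOX17 alone, at 0.21 ± 0.08 (SE, adjusted p = 0.028). That call was lost without siNT1 replicate 1 (adjusted p = 0.0536), siNT1 replicate 2 (0.059), siNT2 replicate 1 (0.0859), siSOX17 replicate 1 (0.127) or siSOX17 replicate 2 (0.0782). The siPAX8 value of -0.18 ± 0.08 missed the threshold (adjusted p = 0.0571), and it was -0.22 without siNT2 replicate 1. It passed the threshold with DESeq2 (adjusted p = 0.045), with no filter on low counts (0.0294) and against siNT2 alone (0.0362). It also passed with the replicate number added to the model (0.0343). The siDual value of -0.15 passed it with no filter (adjusted p = 0.0324). SQSTM1 shares 20.7% of its exon bases with a gene on the opposite strand, and as the strand setting of the counting is not given, their reads cannot be told apart.

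GABARAPL1 was measured at 3.51 and 2.68 CPM in siNT1 and 3.21 and 3.15 CPM in siNT2, and at 5.78 and 5.77 CPM in siPAX8, 4.90 and 4.67 in siSOX17, 5.67 and 4.57 in siDual, 3.92 and 5.34 in siMECOM and 4.76 and 4.75 in siWT1. All 10 knockdown libraries were above the 4 control libraries, at a low level. This ATG8 gene rose by 0.88 ± 0.14 (SE, adjusted p = 2.86e-05) in siPAX8, 0.61 ± 0.15 (SE, adjusted p = 0.00164) in siSOX17, 0.71 ± 0.14 (SE, adjusted p = 0.000364) in siDual, 0.57 ± 0.14 (SE, adjusted p = 0.00474) in siMECOM and 0.60 ± 0.14 (SE, adjusted p = 0.00235) in siWT1. Without siMECOM replicate 2 the siMECOM value was 0.32 and not called (adjusted p = 0.23). MAP1LC3B, whose LC3 protein is a widely used marker of autophagosomes, rose in siPAX8 (0.58), siSOX17 (0.50) and siDual (0.63). Both genes have near-identical copies elsewhere in the genome, so that counts could be split between copies.

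Of the 7 autophagosome formation genes, 3 were called higher in siPAX8 (42.9%, against 26.9% of all genes tested) and 1 lower (14.3%, against 25.4%). In siSOX17 these were 5 (71.4%, against 27.2%) and 1 (14.3%, against 25.5%), and in siDual 4 (57.1%, against 28.9%) and 1 (14.3%, against 27.3%). In siMECOM they were 1 (14.3%, against 16.5%) and 3 (42.9%, against 16.1%), and in siWT1 4 (57.1%, against 17.7%) and 0 (against 19.8%). Of the calls higher, 2 of the 5 in siSOX17 and 1 of the 4 in siWT1 held in every alternative and leave-one-out fit, against 3 of 3 in siPAX8 and 4 of 4 in siDual, as did 1 of the 3 calls lower in siMECOM and 0 of 1 in siDual. WIPI1 was measured at 19.8 and 20.5 CPM in siNT1 and 20.5 and 20.7 CPM in siNT2, and at 41.9 and 38.9 CPM in siPAX8, 25.2 and 23.5 in siSOX17, 36.2 and 40.3 in siDual, 12.5 and 12.6 in siMECOM and 23.4 and 23.8 in siWT1. WIPI1, which binds the phosphoinositide of the growing membrane, was close to 2-fold above the controls in siPAX8 and siDual, slightly above them in siSOX17 and siWT1, and below them in siMECOM. It rose 1.98-fold in siPAX8 (log2 0.99 ± 0.07 SE, adjusted p = 7.89e-10) and 1.88-fold in siDual (log2 0.91 ± 0.07 SE, adjusted p = 2.65e-09) and fell 1.62-fold in siMECOM (log2 -0.70 ± 0.08 SE, adjusted p = 1.32e-06). Of its exon bases 24.3% are shared with a gene on the opposite strand. BECN1 was measured at 30.9 and 31.1 CPM in siNT1 and 31.0 and 32.7 CPM in siNT2, and at 22.2 and 22.5 CPM in siPAX8, 41.1 and 44.3 in siSOX17, 34.2 and 33.6 in siDual, 34.3 and 34.5 in siMECOM and 41.9 and 40.3 in siWT1. BECN1, a subunit of the lipid kinase complex that starts the membrane, was below all controls in siPAX8 and above them in all other knockdowns. It fell 1.41-fold in siPAX8 (log2 -0.49 ± 0.07 SE, adjusted p = 6.65e-06) and rose in siSOX17 (log2 0.44 ± 0.07 SE, adjusted p = 1.38e-05) and siWT1 (log2 0.39 ± 0.07 SE, adjusted p = 0.000117), while the siDual value of 0.11 was not called. BECN1 shares 12.4% of its exon bases with a gene on the opposite strand, ATG7 18.1% likewise, and ATG9A 34.9% with a gene on its own strand. BECN1 also shares 4.68% with a second opposite-strand gene, whose mean count was 10231 against 1552 for BECN1, so its counts are uncertain. The kinase gene ULK1, which acts at the top of the cascade, fell in siSOX17 (-0.62) and rose in siMECOM (0.48). ATG9A, a lipid scramblase carried by vesicles to the growing membrane, rose in siPAX8 (0.27), siSOX17 (0.57) and siDual (0.50), and ATG7, the enzyme that activates ATG8 proteins, rose in siPAX8 (0.27) and siDual (0.33).

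Compared directly, siPAX8 and siSOX17 differed in the level of 20 of these genes: 11 were called higher in siPAX8 (22.9%, against 17.6% of all genes tested) and 9 lower (18.8%, against 19.8%), with a median log2 difference of 0.06. The 9 called lower were 5 without siPAX8 replicate 1. The largest difference was that of CTSK, 4.14-fold higher in siPAX8 (log2 2.05 ± 0.39 SE, adjusted p = 0.000324), at its low counts. NEU1 was 1.94-fold higher in siPAX8 (log2 0.95 ± 0.09 SE, adjusted p = 1.24e-07), and ATP6V1A (0.90), WIPI1 (0.73), ULK1 (0.70), LIPA (0.61) and CTSD (0.49) were higher in siPAX8 too. CTSB was 2.00-fold lower in siPAX8 (adjusted p = 9.24e-07), BECN1 was 1.91-fold lower (log2 -0.93 ± 0.08 SE, adjusted p = 1.93e-08), and SQSTM1 was 1.31-fold lower (log2 -0.39 ± 0.09 SE, adjusted p = 0.00178). SMPD1 was higher in siPAX8 by 0.39 ± 0.10 (SE, adjusted p = 0.00474), a call that was lost without siPAX8 replicate 2 (adjusted p = 0.061) or siSOX17 replicate 1 (0.0554). GUSB, low in both, differed by -0.11 ± 0.14 (SE), which was not called.

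**Figure D4:**
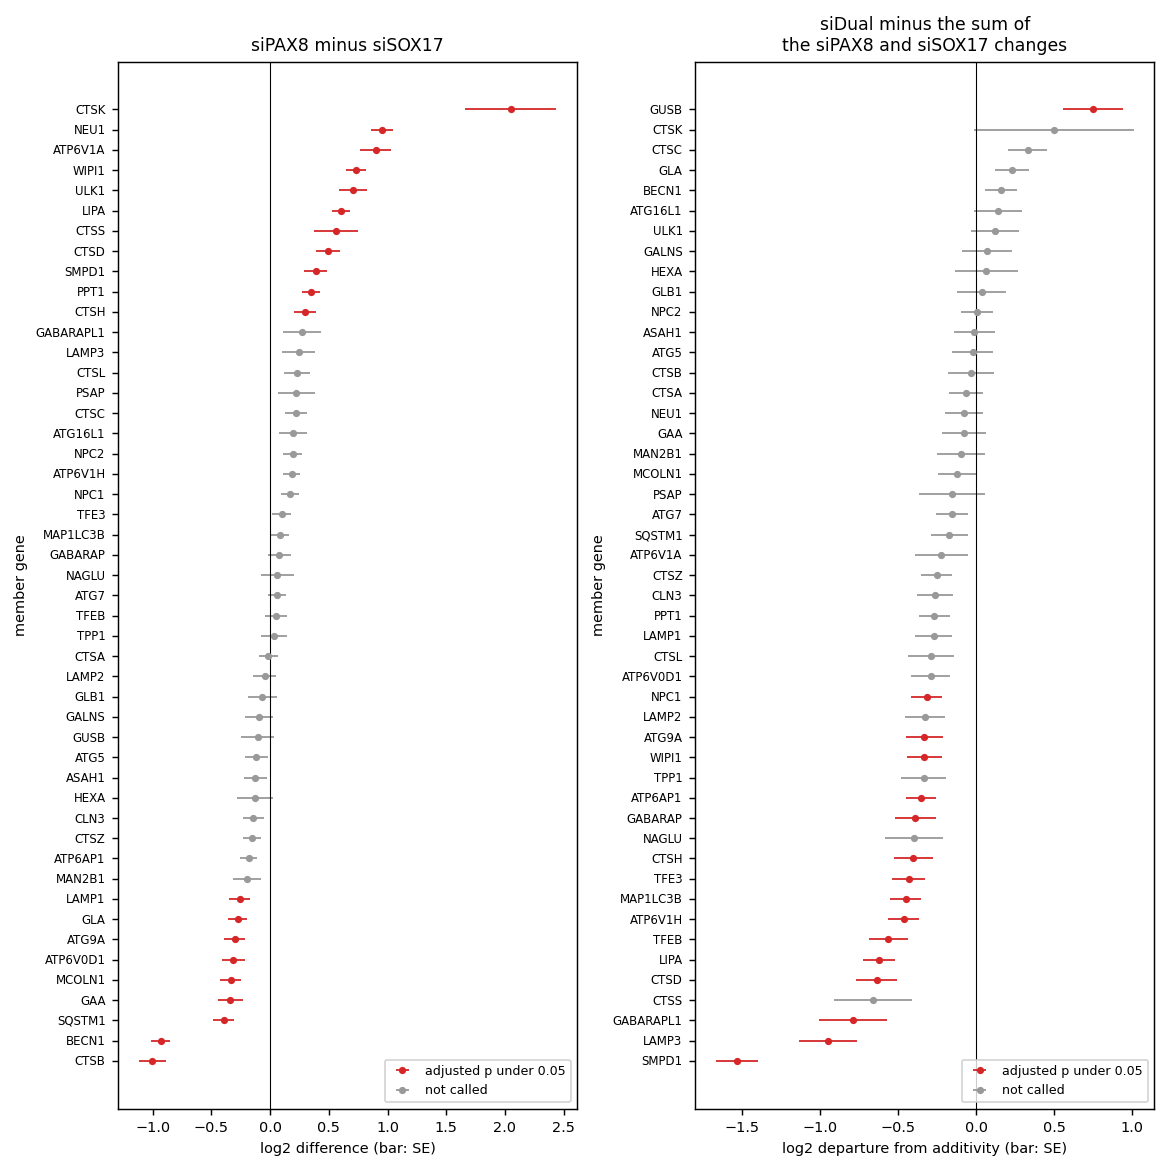
Log2 fold change with SE of the 48 genes in the comparison of siPAX8 with siSOX17 and in the departure of siDual from the sum of the single knockdowns, with called genes marked by colour. In the comparison of siPAX8 with siSOX17 the genes reach from CTSB as the lowest to CTSK at 2.05, and in the departure from the sum most called genes lie below 0, with GUSB at 0.75 the exception.

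When both factors were targeted together, the siDual response lay below the sum of the single responses more often than above it. The departure is the log2 fold change in siDual minus those in siPAX8 and in siSOX17, each against the controls. PAX8 RNA was higher in siDual (52.8 and 50.6 CPM) than in siPAX8 (32.8 and 38.3 CPM). In siSOX17 it was at 266 and 273 CPM, beside a control mean of 205. SOX17 RNA was at 77.9 and 82.9 CPM in siPAX8, beside a control mean of 111. Among the targeted genes, the departure of PAX8 was 0.14 and not called. The departures of SOX17 (0.69) and MECOM (0.56) were called above 0. The part of these differences, or of the dose of each pool, in the departures of the 48 genes was not tested. The departure was called below 0 for 15 of 48 genes (31.2%, against 13% of all genes tested) and above 0 for 1 (2.08%, against 12%), with a median of -0.26 beside 0.01 for all genes. For SMPD1 the siDual increase of 1.23 stood beside single increases of 1.58 and 1.19, a departure of -1.53 ± 0.13 (SE, adjusted p = 1.2e-07). For LIPA, siDual was at 1.47 beside 1.35 and 0.74, a departure of -0.62 ± 0.10 (SE, adjusted p = 0.000164). For CTSD the departure was -0.64 ± 0.13 (SE, adjusted p = 0.00134). TFEB, called lower in siDual and in neither single knockdown, had a departure of -0.56 ± 0.13 (SE, adjusted p = 0.00231). The 1 value above 0 was that of GUSB (log2 0.75 ± 0.19 SE, adjusted p = 0.00644), whose log2 fold change of -1.51 in siDual was nearer 0 than the sum of -1.18 and -1.08, and the departure was 0.49 without siSOX17 replicate 2. For CTSB, with almost no change in siSOX17, the departure was -0.03 ± 0.15 (SE) and was not called. The single-knockdown and control libraries enter both this value and the comparisons above.

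Between the control pools, 0 of the 48 genes were called in either direction by edgeR and 0 by DESeq2. Of all genes, 0.242% were called higher in siNT1 and 0.0571% lower. At an unadjusted p under 0.05 there were 3 of the 48 (CTSC, CTSL and ULK1) and 1608 of all genes. The log2 differences of the members ran from -0.33 to 0.33, with a median of -0.06.

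The response of the 9 genes with a TCACGTG match is set beside that of the 28 genes with a window and no match. In siPAX8, where 26.9% of all genes tested were called higher and 25.4% lower, 2 of the 9 were called higher and 2 lower. Of the 28, 15 were called higher and 5 lower, and the median log2 fold changes were -0.07 and 0.21. In siSOX17 4 of the 9 were called higher and 1 lower (median 0.16) beside 13 and 3 of 28 (median 0.19). In siDual 2 of the 9 were called higher and 5 lower (median -0.21) beside 11 and 6 of 28 (median 0.10). Of all genes, 27.2% were called higher and 25.5% lower in siSOX17, and 28.9% and 27.3% in siDual. In siMECOM the medians were 0.04 and -0.01, and in siWT1 0.05 and 0.11. The difference between the genes with and without a match was not tested. LAMP1, with 6 matches, had log2 fold changes of -0.10 in siPAX8, 0.16 in siSOX17 and -0.22 in siDual.

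A wider list of 122 other lysosome, autophagy and mTORC1 pathway genes, of which 121 were tested, also had more genes called higher than lower in the PAX8 and SOX17 knockdowns. In siPAX8 60 were called higher (49.6%, against 26.9% of all genes tested) and 24 lower (19.8%, against 25.4%), with a median log2 fold change of 0.21. In siSOX17 these were 55 (45.5%, against 27.2%) and 24 (19.8%, against 25.5%), with a median of 0.15, and in siDual 54 (44.6%, against 28.9%) and 21 (17.4%, against 27.3%), with a median of 0.10. In siMECOM 25 were called higher (20.7%, against 16.5%) and 21 lower (17.4%, against 16.1%), and in siWT1 24 higher (19.8%, against 17.7%) and 28 lower (23.1%, against 19.8%), so these shares were near the background. Of 15 other proton pump subunit genes, 11 were called higher (73.3%) and 1 lower (6.67%) in siPAX8, 9 (60%) and 3 (20%) in siSOX17, 10 (66.7%) and 3 (20%) in siDual, to be read against the same shares of all genes, and 2 and 3 in siMECOM and 3 and 2 in siWT1. Of 9 other autophagy receptor genes, 6 were higher (66.7%) and 2 lower (22.2%) in siPAX8, 8 (88.9%) and 0 in siSOX17 and 6 (66.7%) and 0 in siDual, among them BNIP3, a receptor for mitochondria, at 1.37 in siDual. In siWT1, 10 of 24 other hydrolase and cofactor genes were called lower (41.7%, against 19.8% of all genes) and 3 higher (12.5%, against 17.7%), with the galactosylceramidase gene GALC at -1.71 and the cathepsin gene CTSF at 1.07.

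Several genes of the wider list were called with changes of more than 2-fold, and these calls were not recomputed under the alternatives. OSTM1, the partner of the lysosomal chloride transporter CLCN7, rose by 1.25 in siPAX8, 1.26 in siSOX17 and 1.32 in siDual on the log2 scale. The cathepsin gene CTSO rose by 1.43, 1.67 and 1.75 in the same groups. WIPI2, which recruits the ATG8-coupling machinery, fell in siSOX17, with a log2 fold change of -2.15, and in siDual (-1.34). DEPTOR, an inhibitor of mTOR, fell in siPAX8 (-1.45), siDual (-2.74) and siMECOM (-1.32). The cathepsin gene CTSV rose by 1.75 in siMECOM.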

How the data were processed

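Gene-level RNA-seq was deposited for 14 libraries of OVCAR4 cells, in 7 groups of 2 by the siRNA pool in each sample title. The deposited values are raw counts of reads for each gene, made by the authors with STAR 2.5.1b and featureCounts 1.6.3 on hg38, per the submitters' processing notes. The annotation release, strand setting and filters are not given in the sources used here. A further deposited column gives the summed exon length of each gene. Of 58219 genes, 57836 matched GENCODE 29 by identifier without its version, and positions come from the deposited table. Unnamed genes held 0.0479% of counts. Total counts were 40832825 to 49803860 a library. The chi-square between the libraries of a group was 10.7 to 20.6 per degree of freedom, where counting error alone gives about 1, so the spread between libraries exceeded counting error.

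Genes with low counts were removed by edgeR 4.0.16 (filterByExpr in R 4.3.3, with a minimum count of 10 and a minimum total of 15), and library sizes were scaled by TMM, a trimmed mean of log ratios. A single quasi-likelihood model with a coefficient for each of the 7 groups had 7 residual degrees of freedom. The variation between libraries of a group, beyond counting error, was 7.57%, and it may be technical. The reference of every knockdown was the average of the control pool coefficients. The Benjamini-Hochberg adjustment of p-values covered all 21032 genes tested, and a call is an adjusted p under 0.05. CPM use TMM-scaled library sizes, and FPKM are these CPM per kilobase of summed exons. Standard errors were derived from the fold change and its quasi-likelihood F value. The method was tested on simulated data.

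Given in full are members called at 2-fold or more in a knockdown, TFEB, TFE3 and SQSTM1. CTSD, NEU1, WIPI1, BECN1 and GABARAPL1 were added, and other values picked, after their values were seen. From the wider list the called gene with the largest change in each direction per sublist and knockdown could be named. MITF was named outside this rule. The members, lists and tests were chosen with earlier results of these data known. The alternatives comprised DESeq2 1.42.0, edgeR with DESeq2's size factors, no filter or a minimum count of 30, each control pool alone, no mitochondrially encoded genes, a replicate block, and leaving out each library. Exon overlaps were computed from the deposited exon positions: 23 of the 48 genes share exon bases with another gene.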

Additional observations from a re-analysis of the deposited data

Results flagged for a closer look

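In these genes the siDual response departed from the sum of the siPAX8 and siSOX17 responses by a test of the difference itself (edgeR quasi-likelihood, adjusted p under 0.05 over all genes tested), which is why they are listed. Values are log2 departures, and negative ones mean that siDual lay below the sum. Those kept in every alternative were SMPD1 (-1.53), LAMP3 (-0.95), CTSD (-0.64), LIPA (-0.62), TFEB (-0.56), ATP6V1H (-0.47), MAP1LC3B (-0.45), TFE3 (-0.43), ATP6AP1 (-0.35) and, above the sum, GUSB (0.75), which was 0.49 without siSOX17 replicate 2 (adjusted p = 0.0457).

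GABARAPL1 (-0.79) was not called without siDual replicate 2 (-0.64, adjusted p = 0.0717). CTSH (-0.40) was not called without siPAX8 replicate 1 (adjusted p = 0.0855), siSOX17 replicate 1 (0.15) or siDual replicate 2 (0.101). NPC1 (-0.32) was not called without siPAX8 replicate 2 (0.0938), siSOX17 replicate 2 (0.135), siDual replicate 1 (0.094) or siDual replicate 2 (0.053).

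GABARAP (-0.39), WIPI1 (-0.33) and ATG9A (-0.33) were less stable. GABARAP was not called without siNT1 replicate 1, siNT2 replicate 1, siPAX8 replicate 1, siSOX17 replicate 1 or 2, or siDual replicate 1 or 2, with adjusted p of 0.0617 to 0.189. WIPI1 was not called without siNT1 replicate 1, siNT2 replicate 1, siPAX8 replicate 1, siSOX17 replicate 1 or siDual replicate 1, with adjusted p of 0.0548 to 0.172, nor with no filter on low counts (0.0851). ATG9A was not called without siNT1 replicate 1 or 2, siNT2 replicate 1, siPAX8 replicate 1 or 2, siSOX17 replicate 2, or siDual replicate 1 or 2, with adjusted p of 0.0549 to 0.196.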

How the results depend on the processing

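Of 162 single-gene calls, 100 were kept under every alternative, 62 were lost under at least 1 and 0 reversed. DESeq2 lost 1, the replicate block 0, the fit without mitochondrially encoded genes 0, leaving out a library 60 and a single control pool 34. Counts of calls stayed within 1.5 times except as follows. With no filter the members called lower in siSOX17 were 8 (main 5), and they ran from 5 to 9 on leaving out a library. Against siNT2 alone the members called higher in siWT1 were 9 (main 15), with 9 to 16 on leaving out a library. On leaving out a library the members called higher in siMECOM were 5 to 9 (main 8), all genes called there were 4096 to 6359 (main 6857, lowest without siMECOM replicate 2), and members lower in siPAX8 than in siSOX17 were 5 to 7 (main 9). Calls among all genes between siNT1 and siNT2 numbered 63, or 150 with DESeq2, 232 with no filter and 11 to 33 on leaving out a library. The cause of these shifts was not tested.

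Of the called values, 0 turned sign. Values that were not called were followed only in the knockdowns against controls. They were followed only for SMPD1, LIPA, GUSB, CTSB, LAMP3, CTSK, TFEB, TFE3 and SQSTM1. Those that turned sign were all within 0.1 of 0 except CTSK in siDual (-0.30). Against siNT1 alone TFEB was at -0.01926 in siPAX8 and at -0.06529 in siSOX17, and SQSTM1 at 0.05022 in siWT1. Against siNT2 alone CTSB was at 0.03039 in siSOX17 and GUSB at -0.01731 in siWT1. With no filter TFE3 was at -0.007212 in siMECOM and SQSTM1 at 0.0004433 in siWT1, where SQSTM1 was also at 0.003972 with DESeq2 size factors, 0.004124 with the stricter filter and 0.01102 without mitochondrially encoded genes. On leaving out a library, siSOX17 ran from -0.1404 to 0.1016 for CTSB and from -0.007319 to 0.05434 for TFEB, CTSK from -0.5426 to 0.01513 in siDual, TFE3 from -0.004512 to 0.04101 in siMECOM, and siWT1 from -0.04605 to 0.1487 for GUSB and from -0.1409 to 0.117 for SQSTM1.

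The replicate numbers were not taken to pair the libraries, as only 7 of 21 correlations of same-numbered deviations exceeded 0.1 (-0.018 to 0.161, median 0.072), though all but 1 were above 0. The replicate block raised the number of all genes called in every comparison, and it called CTSK in siPAX8 (adjusted p = 0.0463), SQSTM1 in siPAX8 (0.0343), GUSB in siMECOM (0.0468) and SMPD1 in siWT1 (0.0258). With the replicate block, all genes called between siNT1 and siNT2 were 150 and the members whose siDual response lay above the sum were 2 (main 1, and 1 to 2 on leaving out a library). Depth limits mainly CTSK, with 11 to 64 counts a library.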
